A study of Mus musculus with 13 samples.

Results

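Mouse splenic B cells carry a small set of receptors that decide where a lymphocyte sits in the spleen and when it leaves. The 10 genes described here were taken by symbol from the deposited count tables: the sphingosine 1-phosphate (S1P) receptors S1pr1, S1pr2 and S1pr4, the S1P exporter Spns2, the early activation antigen Cd69, the chemokine receptors Ccr6, Ccr7, Cxcr4 and Cxcr5, and the oxysterol receptor Gpr183. They are 10 of 23337 symbols in the tables, and all 10 were among the 13574 genes with enough reads to be tested.

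The study sequenced RNA from primary B cells that were enriched from spleen with CD43 beads by negative selection. Its 13 libraries form 4 groups. Control cells were Regnase-1+/+ hCD20TamCre and were either naive and untreated (4 libraries) or treated with anti-IgM F(ab')2 for 4 h (3 libraries), which crosslinks the B cell receptor (BCR). Deficient cells were Regnase-1 f/f hCD20TamCre, untreated (3 libraries) or given the same anti-IgM treatment (3 libraries). Regnase-1, encoded by Zc3h12a, is an endoribonuclease that degrades selected messenger RNAs. All 4 groups carried hCD20TamCre, a tamoxifen-regulated Cre recombinase driven by the human CD20 promoter and therefore directed to B cells. The labels give neither the tamoxifen dosing, nor the age of the mice, nor a culture time for the untreated cells. Time in culture and receptor stimulation therefore cannot be told apart in the comparisons of stimulated with untreated cells. They also do not say whether the libraries of a group came from separate mice, so the p-values measure the spread between these libraries only.

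B cells find the follicle through CXCR5, which follows CXCL13, and move towards the T cell zone when CCR7, the receptor for CCL19 and CCL21, outweighs it. GPR183 (EBI2) senses oxysterols and guides activated B cells to the outer follicle, and S1PR1 lets lymphocytes leave along the S1P gradient between tissue and blood. CD69 binds the S1PR1 protein and draws it off the surface after activation, while the transcription factors KLF2 and FOXO1 are known to sustain S1pr1 and other homing receptor genes in resting lymphocytes.

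The 250 bases before the RefSeq start (build GRCm38.p6) are shown for S1pr4 and Cxcr4, a pair of receptors that fell after stimulation. Gpr183, a receptor that rose, is shown beside them. Whether promoter sequence took part in these changes was not tested. Capitals mark the KLF core CACCC on either strand; the FOXO motif GTAAACA was searched on both strands as well.
S1pr4, chr10:81500138-81500387, minus strand: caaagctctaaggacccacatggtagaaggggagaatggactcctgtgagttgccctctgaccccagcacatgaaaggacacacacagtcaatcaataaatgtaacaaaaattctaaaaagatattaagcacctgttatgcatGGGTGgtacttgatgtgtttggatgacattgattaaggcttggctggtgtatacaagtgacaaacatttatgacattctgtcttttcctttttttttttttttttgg
Cxcr4, chr1:128592300-128592549, minus strand: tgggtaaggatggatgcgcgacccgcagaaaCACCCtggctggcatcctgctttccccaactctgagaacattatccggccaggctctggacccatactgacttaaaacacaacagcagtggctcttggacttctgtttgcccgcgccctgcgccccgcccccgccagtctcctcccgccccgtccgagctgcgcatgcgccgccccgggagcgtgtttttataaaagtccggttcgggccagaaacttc
Gpr183, chr14:121965194-121965443, minus strand: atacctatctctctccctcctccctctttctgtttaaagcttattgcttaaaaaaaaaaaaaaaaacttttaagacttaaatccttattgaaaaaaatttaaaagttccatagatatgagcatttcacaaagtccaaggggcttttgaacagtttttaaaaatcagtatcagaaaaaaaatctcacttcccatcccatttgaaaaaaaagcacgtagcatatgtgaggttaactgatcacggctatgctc
The RefSeq table held 7 promoters for 6 of the 10 genes; S1pr1, Cd69, Ccr7 and Cxcr5 were not matched. S1pr2, S1pr4 and Cxcr4 each held 1 KLF core, and Spns2, Gpr183 and both Ccr6 promoters held none. The Spns2 window (chr11:72475028-72475277) lies inside the gene as annotated in GENCODE vM21 (chr11:72451638-72489904, minus strand). The core is common, with a match in 52% of 32851 mouse promoters of this length, and the FOXO motif, present in 3.17%, was in none of the 7 windows.

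Regnase-1 is known to act on stem-loops with a pyrimidine-purine-pyrimidine loop in the 3′ untranslated region. The longest GENCODE vM21 (mm10) 3′ untranslated region of each gene was searched for 5 uninterrupted Watson-Crick base pairs closing a loop of 3 such bases, and only Gpr183 and Spns2 held a match. Both matches are shown, with the loop in capitals. Gpr183 is also the receptor whose level differed most between genotypes after stimulation, and it was lower in deficient cells. Spns2 did not differ between genotypes at an edgeR adjusted p under 0.05 in either state. A part of these stem-loops in any level was not tested.
Gpr183, chr14:121952960-121952972, minus strand: aaaaaUGUuuuuu
Spns2, chr11:72451788-72451800, minus strand: cuuguUGUacaag
Among genes with a 3′ untranslated region of like length, 0.8 to 1.25 times that of the gene, 24.5% held at least 1 such stem-loop, for Gpr183 and for Spns2 alike. A match is a description of the letters and does not show that Regnase-1 acts there.

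Sequencing depth ranged from 21407724 to 33244755 counted reads per library. Levels are given in CPM, reads of a gene scaled to a common library total with edgeR's TMM factors, and a gene is called when its Benjamini-Hochberg adjusted p over 13574 genes in edgeR's quasi-likelihood test is under 0.05. Zc3h12a itself averaged 125 CPM in untreated control and 99.9 CPM in untreated deficient libraries, without overlap but not called (adjusted p = 0.106). After stimulation it averaged 153 and 103 CPM, which was called (adjusted p = 0.000784). The labels do not give the deleted part of the gene, so reads outside it may remain. These counts therefore do not show how complete the deletion was. Both libraries of deficient replicate 1 stood apart: their chi-square per gene against the other deficient libraries was 22.5 to 35.3, against 7.96 to 18.3 for the remaining pairs. They summed to 1886 and 1748 CPM over 9 erythroid markers and to 444 and 306 CPM over 9 neutrophil markers, the highest of their groups, and had the lowest B cell marker sums, 14460 and 9760 CPM. By Xist and Y-linked reads, replicate 1 was the only female among the deficient replicates, and replicate 1 was the only male among the controls, in both states. Over all libraries, 10 B cell markers summed to 9760 to 18890 CPM and 10 T cell markers to 32.0 to 101 CPM, of which Lck made up 20.6 to 83.9 CPM. Cd3e lay between 0.250 and 6.74 CPM. The 9 erythroid markers summed to 192 to 1886 CPM over all libraries, so erythroid RNA was present in each. Of these markers Slc4a1 lay between 67.7 and 706 CPM and Beta-s between 50.5 and 617.5 CPM, while Hba-a1 and Hba-a2 were at 0 in every library.

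**Figure D1:**
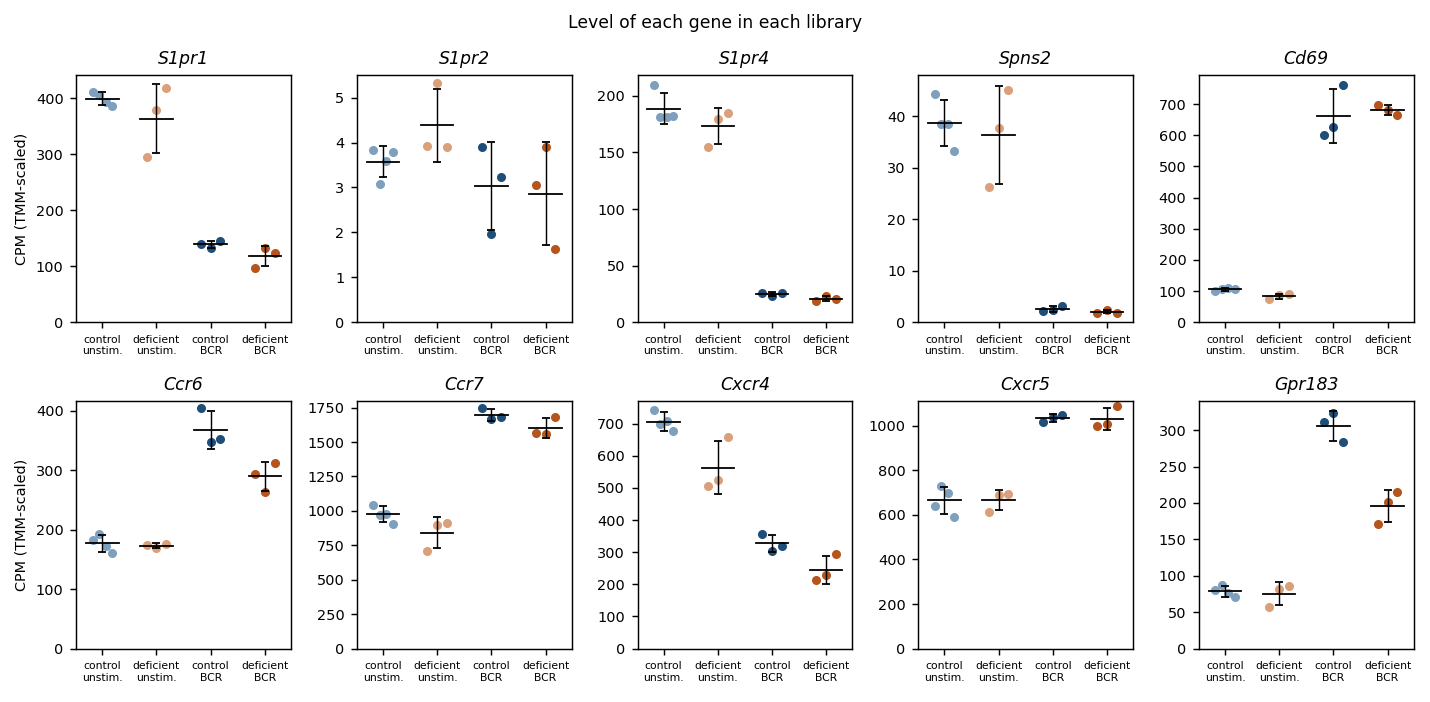
Level of each gene in CPM (vertical axes, from 0) in each of the 13 libraries, by group (horizontal axes). Points are libraries, and bars are the group mean and SD; S1pr4 lies between 181 and 209 CPM in untreated control libraries and between 23.3 and 26.2 CPM after stimulation, while Gpr183 rises to between 283 and 324 CPM in stimulated control and to between 172 and 215 CPM in stimulated deficient libraries.

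Stimulation for 4 h moved 9 of the 10 genes in control cells, 5 upwards and 4 downwards. Cd69, Gpr183, Ccr6, Ccr7 and Cxcr5 rose, and Spns2, S1pr4, S1pr1 and Cxcr4 fell; S1pr2 was not called. In deficient cells 5 genes were again called higher and 4 lower. In control cells 60.3% of all genes tested were called, 28.5% higher and 31.8% lower, and in deficient cells 57.9%, 28.3% higher and 29.6% lower. A call alone therefore says little about these genes, and the sizes carry the result. The groups did not overlap for the 9 genes called in either genotype, against 63.5% of all genes in control and 62% in deficient cells. The median log2 change of the 10 genes was 0.20 in control and 0.01 in deficient cells, beside -0.13 and -0.11 over all genes tested. Both genotype comparisons below use the same libraries as these stimulation comparisons, so the 4 are not independent. In bulk RNA, fewer cells expressing a gene and less RNA per cell cannot be told apart.

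S1pr1, the receptor for egress, stood at 412, 406, 393 and 385 CPM in untreated control libraries 1 to 4 and at 140, 133 and 145 CPM in stimulated ones. In deficient cells it stood at 296, 378 and 417 CPM untreated and at 97.7, 133 and 124 CPM stimulated. All stimulated libraries lay far below all untreated ones, and replicate 1 was the lowest deficient library in both states. S1pr1 was 2.86-fold lower in stimulated control cells (log2 change -1.52 ± 0.12 SE, n = 4 and 3, edgeR adjusted p = 5.28e-08) and 3.08-fold lower in deficient cells (-1.62 ± 0.12, n = 3 and 3, edgeR adjusted p = 5.19e-08). Per kilobase of protein-coding exon, it fell from the fourth highest of the 10 genes to the seventh in both genotypes.

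S1pr4, a further S1P receptor of lymphoid cells, stood at 209, 181, 181 and 183 CPM in untreated control libraries and at 25.4, 23.3 and 26.2 CPM after stimulation. The deficient libraries held 155, 179.9 and 185 CPM untreated and 19.1, 23.2 and 20.5 CPM stimulated. The drop was 7.54-fold in control cells (log2 change -2.91 ± 0.09 SE, edgeR adjusted p = 2.12e-12) and 8.26-fold in deficient cells (-3.05 ± 0.09, edgeR adjusted p = 5.01e-12). Its p-value ranked 9 among all 13574 genes in control cells and 4 in deficient cells. This S1P receptor thus fell by more than S1pr1 on the log2 scale.

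Spns2, the transporter that exports S1P from cells, had the greatest fall of the 10 genes. Its untreated control libraries held 44.3, 38.5, 38.6 and 33.4 CPM, and its stimulated ones 2.27, 2.34 and 3.23 CPM. In deficient cells the values were 26.3, 37.8 and 45.2 CPM untreated and 1.89, 2.39 and 1.79 CPM stimulated. Every stimulated library retained Spns2 reads, but at the level of the least expressed genes of the set. The decrease was 14.8-fold in control cells (log2 change -3.89 ± 0.20 SE, edgeR adjusted p = 7.45e-10) and 17.8-fold in deficient cells (-4.15 ± 0.22, edgeR adjusted p = 8.7e-10). Beside it, 12 endothelial and stromal markers summed to 207 to 224 CPM in untreated and 35.0 to 50.7 CPM in stimulated control libraries, and to 232 to 294 and 56.0 to 66.5 CPM in deficient ones. Pecam1, which B cells can also express, made up 30.4 to 289 CPM of these sums, while Cdh5 lay between 1.35 and 2.76 CPM in all libraries and Lyve1 was at 0 in 9 of 13. Of the 7 markers tested 1 was called lower in control cells, and 1 lower and 1 higher in deficient cells; their part in the Spns2 change was not tested. Spns2 shares 131 exonic bases with Mybbp1a on the opposite strand. The sources used here do not state whether reads were counted by strand.

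S1pr2, which couples to Gα13 and holds B cells in the centre of the follicle, was the lowest of the 10 genes per kilobase in every group. It stood at 3.83, 3.08, 3.59 and 3.79 CPM in untreated control libraries and at 3.90, 1.97 and 3.23 CPM in stimulated ones. The deficient libraries held 3.93, 5.33 and 3.90 CPM untreated and 3.06, 3.90 and 1.62 CPM stimulated. The states overlapped in both genotypes, and the log2 change was -0.23 (95% interval -0.87 to 0.40, edgeR adjusted p = 0.494) in control and -0.61 (-1.29 to 0.07, edgeR adjusted p = 0.0957) in deficient cells. Same-numbered libraries of the 2 states deviated together, and with that pairing as a block the deficient change was -0.65 and was called (edgeR adjusted p = 0.0162), whereas the control change stayed uncalled (edgeR adjusted p = 0.362). Without stimulated deficient library 2, the highest of its group, the unpaired deficient change was -0.91 and was called (edgeR adjusted p = 0.0301). These were the only calls of the deficient change, in 1 of 10 alternatives and in 1 of 13 fits that left out a single library.

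Cd69, whose protein binds S1PR1, rose in every library. It stood at 100.3, 106, 111 and 106 CPM in untreated control libraries and at 600.2, 627 and 761 CPM in stimulated ones. Deficient libraries held 74.2, 86.6 and 89.6 CPM untreated and 698, 680.3 and 664 CPM stimulated. The increase was 6.27-fold in control cells (log2 change 2.65 ± 0.08 SE, edgeR adjusted p = 2.12e-12) and 8.16-fold in deficient cells (3.03 ± 0.09, edgeR adjusted p = 5.01e-12). The ratio of S1pr1 to Cd69 counts within a library, which does not depend on the scaling, fell from 3.78 ± 0.247 (SD, n = 4) to 0.212 ± 0.0214 (n = 3) in control cells and from 4.34 ± 0.339 (n = 3) to 0.174 ± 0.0297 (n = 3) in deficient cells. The highest stimulated ratio, 0.234, was below the lowest untreated ratio, 3.54.

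Among the chemokine receptors, Ccr7 was the highest of the 10 genes per kilobase in every group. It stood at 1046, 973, 977 and 906 CPM in untreated control libraries and at 1748, 1666 and 1683 CPM in stimulated ones. Deficient libraries held 711, 897 and 914 CPM untreated and 1563, 1560 and 1683 CPM stimulated. The states did not overlap in either genotype. Ccr7 rose 1.74-fold in control cells (log2 change 0.80 ± 0.08 SE, edgeR adjusted p = 1.99e-07) and 1.91-fold in deficient cells (0.93 ± 0.08, edgeR adjusted p = 1.05e-07).

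Cxcr5, the receptor for the follicular chemokine CXCL13, rose as well. Untreated control libraries held 638, 730.3, 701 and 592 CPM and stimulated ones 1017, 1041 and 1050.4 CPM. The deficient libraries lay at 614, 690.2 and 693 CPM untreated and at 998, 1009 and 1088 CPM stimulated, and in each genotype every stimulated library lay above every untreated one. The change was 1.56-fold in control cells (log2 0.64 ± 0.07 SE, edgeR adjusted p = 9.66e-07) and 1.55-fold in deficient cells (0.63 ± 0.08, edgeR adjusted p = 2.95e-06). The ratio of Ccr7 to Cxcr5 counts was 1.47 ± 0.137 (SD, n = 4) in untreated control and 1.64 ± 0.0681 (n = 3) in stimulated control libraries, whose ranges of 1.33 to 1.64 and 1.60 to 1.72 overlapped. In deficient cells the ratio went from 1.26 ± 0.0874 to 1.55 ± 0.0113 (SD, n = 3 each), and the ranges of 1.16 to 1.32 and 1.55 to 1.57 did not overlap. The ratios compare counts of genes of unequal length and serve only to follow a library's balance across groups; they were not tested. Cxcr5 shares 110 exonic bases with Bcl9l on the opposite strand.

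Ccr6, the receptor for CCL20, stood at 182, 193, 173 and 160.0 CPM in untreated control libraries and at 405, 347 and 352 CPM in stimulated ones. The untreated deficient libraries held 174, 169 and 177 CPM and the stimulated ones 294, 264 and 313 CPM. Untreated libraries of both genotypes overlapped, and stimulated deficient libraries all lay between the untreated and the stimulated control libraries. Ccr6 rose 2.08-fold in control cells (log2 change 1.06 ± 0.07 SE, edgeR adjusted p = 3.91e-09) and 1.67-fold in deficient cells (0.74 ± 0.08, edgeR adjusted p = 7.21e-07).

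Cxcr4, the receptor for CXCL12, was the chemokine receptor that fell. It stood at 744, 698, 708 and 676 CPM in untreated control libraries and at 357, 305 and 319.6 CPM in stimulated ones. Deficient libraries held 506, 526 and 658 CPM untreated and 212, 230.2 and 295 CPM stimulated, each state below the matching control libraries. Cxcr4 was 2.16-fold lower in stimulated control cells (log2 change -1.11 ± 0.11 SE, edgeR adjusted p = 9.06e-07) and 2.29-fold lower in stimulated deficient cells (-1.20 ± 0.12, edgeR adjusted p = 8.29e-07).

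Gpr183, the oxysterol receptor, held 80.3, 87.9, 76.0 and 70.6 CPM in untreated control libraries and 312, 324 and 283 CPM in stimulated ones. The deficient libraries held 57.6, 82.5 and 85.9 CPM untreated and 172, 202 and 215 CPM stimulated. The untreated genotypes overlapped, and the stimulated ones were well apart. The rise was 3.89-fold in control cells (log2 change 1.96 ± 0.13 SE, edgeR adjusted p = 4.25e-08) and 2.61-fold in deficient cells (1.38 ± 0.14, edgeR adjusted p = 2.95e-06). The gene (chr14:121952551-121965195, mm10, minus strand) lies wholly within Ubac2 on the plus strand, with no exonic base in common. Reads from Ubac2 introns could add to its count only if strand was not used.

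**Figure D2:**
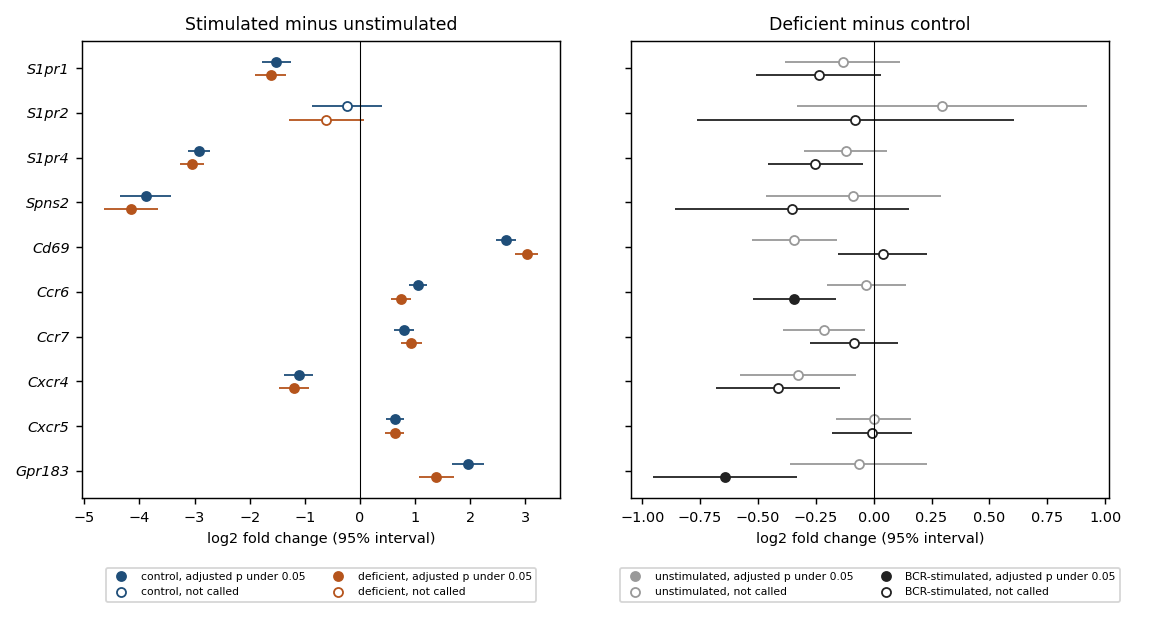
Log2 fold change of each gene with its 95% interval (horizontal axes): stimulated minus unstimulated in each genotype on the left, deficient minus control in each state on the right. Filled points have an edgeR adjusted p under 0.05; on the right only Ccr6 and Gpr183 after stimulation are filled, at -0.34 and -0.64.

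In untreated cells none of the 10 genes differed between genotypes at an adjusted p under 0.05, beside 44 of all 13574 genes tested, 0.324%, that were called. At an unadjusted p under 0.05 there were 3, Cd69, Cxcr4 and Ccr7. DESeq2, the other count test run, called Cd69 (-0.33 on the log2 scale, adjusted p = 0.0052). Cd69 was 0.34 lower on the log2 scale in deficient libraries (log2 change -0.34, 95% interval -0.53 to -0.16, edgeR adjusted p = 0.127), Cxcr4 at -0.33 (-0.58 to -0.08, edgeR adjusted p = 0.398) and Ccr7 at -0.21 (-0.39 to -0.04, edgeR adjusted p = 0.431). The genotypes did not overlap for Cd69 and Cxcr4, where deficient libraries were lower, nor for S1pr2, where they were higher; over all genes 8.72% did not overlap. Deficient replicate 1 was the lowest of its group for 8 of the 10 genes. Without both of its libraries the log2 differences were -0.27 for Cd69, -0.26 for Cxcr4 and -0.11 for Ccr7, none of them called. Without stimulated control library 3, which raised the number of genes passing the filter to 13899, Cd69 was called (edgeR adjusted p = 0.0473). With sex as a term Cxcr4 (-0.42, edgeR adjusted p = 0.0359) and Ccr7 (-0.28, edgeR adjusted p = 0.0372) were called, and edgeR then called 198 genes in all, as against 44. Cd69, Cxcr4 and Ccr7 were each called in 1 of 10 alternatives. On leaving out single libraries Cd69 was called in 1 of 13 fits, and Cxcr4 and Ccr7 in 0. For Cxcr5 the difference was 0.00 with a 95% interval of -0.16 to 0.16, and for Gpr183 -0.07 (-0.36 to 0.23).

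After stimulation 2 of the 10 genes, Gpr183 and Ccr6, were called lower in deficient cells and none higher. Over all genes tested 273, or 2.01%, were called, and 1.26% of all genes were called lower in deficient cells. Gpr183 averaged 306 ± 20.7 CPM in control and 196 ± 22.1 CPM in deficient cells (SD, n = 3 each), a 1.56-fold difference (log2 change -0.64 ± 0.14 SE, edgeR adjusted p = 0.0359). Ccr6 averaged 368 ± 32.0 and 290.0 ± 24.6 CPM, a 1.27-fold difference (log2 change -0.34 ± 0.08, edgeR adjusted p = 0.0352). Both differences had the same direction within each sex, where 1 library stood against 2. The only deficient female was replicate 1, which stood apart, so sex and that replicate cannot be told apart. Female libraries held 324 and 283 CPM of Gpr183 in control against 172 in deficient cells, and male libraries 312 against 202 and 215 CPM. For Ccr6 the female values were 347 and 352 against 294 CPM and the male values 405 against 264 and 313 CPM.

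Some sums of B cell subset markers also differed between the stimulated genotypes, and others overlapped. The follicular B cell markers Fcer2a, Klf2, Cd55 and Icosl summed to 681 to 778 CPM in stimulated control and 529 to 602 CPM in stimulated deficient libraries, without overlap, and of these 4 Fcer2a (-0.39, edgeR adjusted p = 0.0262) and Cd55 (-0.65, edgeR adjusted p = 0.00401) were called lower. The 6 plasma cell markers summed to 3128 to 3518 and 2444 to 2864 CPM, also without overlap, with 1 of 6 called lower; Irf4 held most of that sum. The 8 marginal zone markers summed to 1139 to 1351 and 1251 to 1457 CPM, which overlapped, with none called by edgeR. The 7 germinal centre markers summed to 261 to 421 and 257 to 784.5 CPM, which also overlapped, with none called. In untreated libraries the 4 follicular markers summed to 1443 to 1689 CPM in control and 1311 to 1446 CPM in deficient cells, which overlapped. The 6 plasma cell markers summed to 827 to 967 CPM in untreated control libraries, so that sum also rose with stimulation. The part of these markers in the Gpr183 and Ccr6 differences was not tested.

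Both calls sit close to the threshold. Leaving out each library in turn kept both directions, while Gpr183 stayed called in 5 of 13 fits (log2 -0.71 to -0.55, edgeR adjusted p = 0.00109 to 0.132) and Ccr6 in 7 of 13 (-0.40 to -0.27, edgeR adjusted p = 0.0283 to 0.185). The Gpr183 call was lost without untreated control library 1 or 3 or without any 1 of the 6 stimulated libraries. The Ccr6 call was lost without untreated control library 3, untreated deficient library 2, stimulated control library 1 or 3, or stimulated deficient library 1 or 2. With no filter on low counts Gpr183 was not called (edgeR adjusted p = 0.0552), and with only the groups compared in the fit Ccr6 was not (edgeR adjusted p = 0.101). Without both libraries of deficient replicate 1, Gpr183 differed by -0.55 (edgeR adjusted p = 0.000594) and Ccr6 by -0.34 (edgeR adjusted p = 0.0599). The part of that replicate's marker sums in either difference was not tested.

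Of the other 8 genes, Cxcr4 was at -0.41 (95% interval -0.68 to -0.14, edgeR adjusted p = 0.118), S1pr4 at -0.25 (-0.46 to -0.05, edgeR adjusted p = 0.235) and S1pr1 at -0.24 (-0.51 to 0.03, edgeR adjusted p = 0.474) in stimulated deficient cells. The genotypes did not overlap for 5 of the 10 genes, S1pr1, S1pr4, Ccr6, Cxcr4 and Gpr183, all lower in deficient cells; over all genes 17.8% did not overlap. Cxcr4 was also lower within each sex, again with 1 library against 2. It held 305 and 319.6 against 212 CPM in females and 357 against 230.2 and 295 CPM in males. DESeq2 (adjusted p = 0.0111) and the fit with sex as a term (edgeR adjusted p = 0.00899) called Cxcr4, and the latter also called S1pr4 (edgeR adjusted p = 0.0152). These were the only 2 of 10 alternatives that called Cxcr4, and the only 1 of 10 that called S1pr4. On leaving out single libraries Cxcr4 was called in 1 of 13 fits (edgeR adjusted p = 0.0131 to 0.369) and S1pr4 in 0. That 1 fit left out stimulated deficient library 3, which held the most Cxcr4 of its group. Without both libraries of deficient replicate 1 the log2 differences were -0.31 for Cxcr4, -0.18 for S1pr4 and -0.11 for S1pr1, none of them called. Ccr7 at -0.08 (95% interval -0.27 to 0.10), Cd69 at 0.04 (-0.16 to 0.23) and Cxcr5 at -0.01 (-0.18 to 0.17) had intervals around 0. The median log2 difference of the 10 genes was -0.25, beside 0.00 over all genes tested. The 10 genes were chosen with earlier results of these data known, so their counts and this median are a description only.

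Whether the genotypes responded differently was asked of the difference between their stimulation changes. Without the pairing of libraries no gene of the 10 was called, beside 1 of 13574 genes (0.00737%), and 3 had an unadjusted p under 0.05. The difference of the log2 changes was 0.38 ± 0.12 (SE) for Cd69 (edgeR adjusted p = 0.844), -0.58 ± 0.19 for Gpr183 and -0.31 ± 0.11 for Ccr6 (edgeR adjusted p = 1 for both). With each same-numbered pair as a block, edgeR called 68 genes (0.501%), among them Gpr183, whose response was smaller in deficient cells by 0.52 on the log2 scale (log2 difference -0.52 ± 0.08 SE, edgeR adjusted p = 0.00317). Cd69 (0.39, edgeR adjusted p = 0.0661) and Ccr6 (-0.27, edgeR adjusted p = 0.229) were not called with the block.

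The values of each pair come from the same counts as that fit, and the pairing itself was read from these data. Gpr183 rose by 1.96, 1.88 and 1.90 on the log2 scale in control pairs 1 to 3 and by 1.58, 1.29 and 1.32 in deficient pairs. Cd69 rose by 2.58, 2.57 and 2.78 in control pairs and by 3.23, 2.97 and 2.89 in deficient pairs. Ccr6 rose by 1.15, 0.85 and 1.02 in control and by 0.75, 0.64 and 0.82 in deficient pairs. The responses of the genotypes did not overlap for these 3 genes nor for Ccr7, at 0.74 to 0.78 in control and 0.80 to 1.14 in deficient pairs; over all genes 13.5% did not overlap. Without deficient replicate 1 the Gpr183 difference was -0.64 and was called without a block (edgeR adjusted p = 0.0321). The Gpr183 difference was called in 2 of 9 alternatives, that fit and the block, and in 0 of 13 fits that left out a single library. The ratio of Gpr183 to Cxcr5 counts went from 0.118 ± 0.00721 (SD, n = 4) to 0.296 ± 0.0226 (n = 3) in control and from 0.112 ± 0.0163 (n = 3) to 0.190 ± 0.0155 (n = 3) in deficient libraries, and the stimulated ranges of 0.270 to 0.311 and 0.172 to 0.200 did not overlap.

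**Figure D3:**
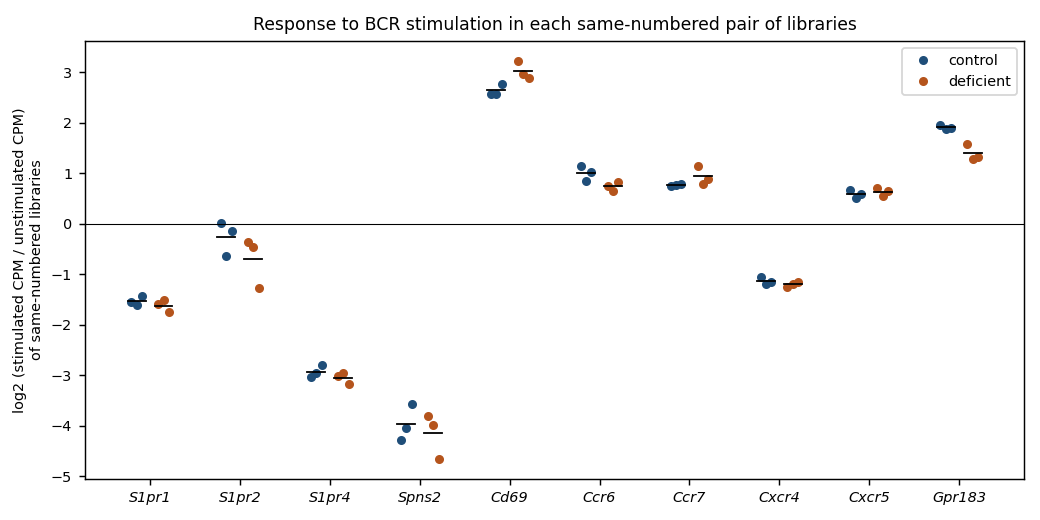
Log2 ratio of stimulated to unstimulated CPM (vertical axis) in each same-numbered pair of libraries, for control (blue) and deficient (orange) cells; horizontal lines are means of 3 pairs. The deficient Gpr183 points, 1.29 to 1.58, lie below the control points, 1.88 to 1.96, while the points of S1pr1, S1pr2, S1pr4, Spns2, Cxcr4 and Cxcr5 overlap.

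Levels were compared between genes per kilobase of protein-coding exon. In untreated control cells the order was Ccr7 (493 CPM per kilobase), Cxcr4 (391), Cxcr5 (219), S1pr1 (131), Ccr6 (84.9), S1pr4 (79.0), Cd69 (62.7), Gpr183 (27.3), Spns2 (11.9) and S1pr2 (0.544). Only the neighbours Ccr6 and S1pr4 overlapped there. Untreated deficient cells kept this order, and there Ccr7 and Cxcr4 overlapped. In stimulated control cells the order became Ccr7 (859), Cd69 (393), Cxcr5 (341), Cxcr4 (181), Ccr6 (176), Gpr183 (106), S1pr1 (45.8), S1pr4 (10.5), Spns2 (0.806) and S1pr2 (0.462), with overlap of Cxcr4 and Ccr6. Stimulated deficient cells differed in the order of that overlapping pair, with Ccr6 at 139 and Cxcr4 at 136, and Spns2 and S1pr2 overlapped there. S1pr1 stood above 97.5% of all tested genes per kilobase in untreated control cells and above 87.5% in stimulated ones, whereas Cd69 went from 93.0% to 99.0%.

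The wider guidance machinery was described with 8 lists of 110 genes, of which 101 were tested. The lists were chosen with earlier results of these data known, so their shares serve as description only. In control cells stimulation raised 20 and lowered 48 of them, 67.3% in all beside 60.3% of all genes, and in deficient cells it raised 20 and lowered 46, 65.3% beside 57.9%. The median log2 change was -0.46 and -0.43, beside -0.13 and -0.11 over all genes.

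**Figure D4:**
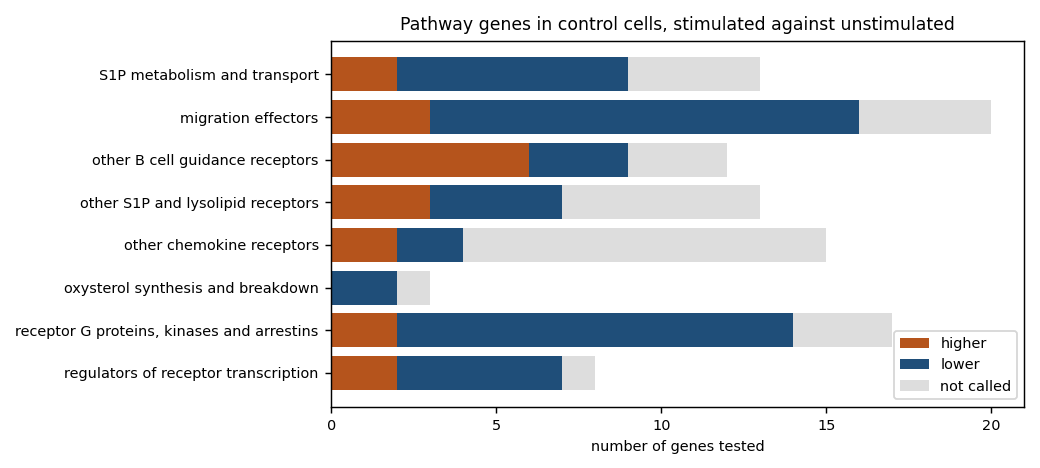
Number of tested genes in each list (horizontal bars) that were called higher, lower or not called in stimulated against unstimulated control cells. Of 17 genes for receptor G proteins, kinases and arrestins 12 were lower and 2 higher. Of 20 migration effectors 13 were lower and 3 higher. Over all genes tested 31.8% were called lower and 28.5% higher.

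Of 17 genes for receptor G proteins, kinases and arrestins 12 fell and 2 rose in control cells, and 10 fell and 2 rose in deficient cells, where 31.8% and 29.6% of all genes were called lower. With DESeq2 size factors 11 fell and 3 rose in control cells, and 10 fell and 2 rose in deficient cells. With upper-quartile factors 13 fell and 1 rose in control cells, and 14 fell and 2 rose in deficient cells. Gnai2, the inhibitory G protein subunit through which chemokine receptors signal, was 3.35-fold lower in control cells (740 ± 33.1 to 221 ± 10.98 CPM, SD, n = 4 and 3, edgeR adjusted p = 5.08e-12). Grk2, the kinase that desensitises S1PR1 and chemokine receptors, listed under its older symbol Adrbk1, was 3.30-fold lower (edgeR adjusted p = 1.08e-11). Gnb1 rose 1.13-fold in control cells. Gna13, which acts downstream of S1PR2, rose 1.11-fold in control cells and was at a log2 change of -0.05 in deficient cells (edgeR adjusted p = 0.539). With upper-quartile factors Gna13 was not called in control cells (log2 0.08, edgeR adjusted p = 0.166) and was called lower in deficient cells (-0.14, edgeR adjusted p = 0.0286). The other named stimulation changes of this and the following lists kept their direction with DESeq2 size factors and with upper-quartile factors.

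Among 20 migration effectors 13 fell and 3 rose in each genotype. Their called share was 80% in each, beside 60.3% of all genes in control and 57.9% in deficient cells. With DESeq2 size factors 12 fell and 3 rose in each genotype. With upper-quartile factors 16 fell and 3 rose in control cells, and 14 fell and 2 rose in deficient cells. Coro1a, an actin regulator needed for lymphocyte egress, fell 4.02-fold in control and 3.85-fold in deficient cells. Dock8, an exchange factor for Cdc42, fell 2.81-fold and 2.76-fold. Rap1b, a small GTPase that activates integrins, rose 2.12-fold and 2.04-fold.

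Of 8 regulators of receptor transcription 5 fell and 2 rose in control cells, and 5 fell and 3 rose in deficient cells. Their called shares were 87.5% and 100%, beside 60.3% and 57.9% of all genes. Klf2 went from 471 ± 40.1 to 103 ± 3.94 CPM in control cells (SD, n = 4 and 3, 4.56-fold lower, edgeR adjusted p = 5.51e-11) and from 407 ± 10.95 to 89.8 ± 15.8 CPM in deficient cells (n = 3 each, 4.53-fold lower, edgeR adjusted p = 1.25e-10). Foxo1 fell 2.75-fold and 2.65-fold. Nfkb1, a subunit of NF-kB, rose 3.07-fold and 3.10-fold, and Ebf1 1.57-fold and 1.87-fold. With TMM factors none of the 8 was called between genotypes in either state, beside 0.324% of all genes in untreated and 2.01% in stimulated cells. With upper-quartile factors Ebf1 was called higher in stimulated deficient cells (log2 0.35, edgeR adjusted p = 0.0441). With TMM its difference was 0.34 (edgeR adjusted p = 0.128).

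The S1P axis had members that moved against S1pr1 and S1pr4. Of 13 further S1P and lysolipid receptors 3 rose and 4 fell in control cells, and 2 rose and 5 fell in deficient cells. Their called share was 53.8% in each genotype, beside 60.3% of all genes in control and 57.9% in deficient cells. S1pr3, an S1P receptor typical of marginal zone B cells, went from 20.4 ± 4.92 to 158 ± 14.2 CPM in control cells (SD, n = 4 and 3, 7.73-fold higher, edgeR adjusted p = 6.84e-07) and rose 7.15-fold in deficient cells. P2ry10, a lysophosphatidylserine receptor, fell 3.18-fold in control and 3.53-fold in deficient cells. Of 13 genes for S1P metabolism and transport 2 rose and 7 fell in each genotype, a called share of 69.2%. Sgpl1, the S1P lyase, rose 1.62-fold and 1.70-fold, Sphk2, a kinase that makes S1P, fell 1.38-fold and 1.48-fold, and Plpp3, a lipid phosphatase listed as Ppap2b, fell 3.54-fold and 5.81-fold.

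Of 15 other chemokine receptors tested, 2 rose and 2 fell in each genotype. This share of 26.7% was below the 60.3% of all genes called in control and the 57.9% in deficient cells. Ccrl2, a chemerin-binding atypical receptor, rose 5.21-fold in control and 3.68-fold in deficient cells. Cxcr3 and Ackr2, listed as Ccbp2, fell 4.38-fold and 4.58-fold in control cells from averages of 3.65 and 1.84 CPM, and 4.02-fold and 3.25-fold in deficient cells. Of 3 tested genes of oxysterol metabolism Cyp27a1 and Cyp39a1 fell in both genotypes, by 4.67-fold and 4.37-fold in control cells; 3 genes of that list had too few reads to be tested. Of 12 other guidance receptors 6 rose and 3 fell in control cells, and 6 rose and 2 fell in deficient cells. Their called shares were 75% and 66.7%. Ptger4, a prostaglandin E2 receptor, rose 7.47-fold and 7.02-fold, Cd44, the hyaluronan receptor, 2.91-fold and 2.74-fold, while Cnr2, the cannabinoid receptor of B cells, fell 3.07-fold and 3.67-fold.

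Between genotypes no pathway gene was called in untreated cells, and DESeq2 called 3. In stimulated cells 3 were called higher and 4 lower in deficient cells, 6.93% beside 2.01% of all genes. Because the lists were chosen with earlier results of these data known, this share is a description only. Gpr132, a lysolipid-related receptor, stood at 174 ± 4.81 CPM in deficient and 274 ± 28.5 CPM in control cells (SD, n = 3 each, 1.58-fold lower, edgeR adjusted p = 0.000561). P2ry10 was 1.44-fold lower (edgeR adjusted p = 0.0229), Gna13 1.30-fold lower (edgeR adjusted p = 0.00401) and Sema4d, a semaphorin, 1.31-fold lower (edgeR adjusted p = 0.000366). Rac2, a small GTPase of leukocyte migration, was 1.42-fold higher (edgeR adjusted p = 0.000299), Gnaq 1.40-fold higher (edgeR adjusted p = 0.00049), and Lpar5, a lysophosphatidic acid receptor, 2.07-fold higher from 1.15 CPM (edgeR adjusted p = 0.0334). In the difference of responses no pathway gene was called without the block and with TMM factors; with upper-quartile factors Rac2 was called (0.39, edgeR adjusted p = 0.0264; 0.42 and edgeR adjusted p = 0.125 with TMM).

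The genes most like each receptor across the 13 libraries were ranked by Pearson correlation of log2 CPM; the libraries fall into stimulated and untreated clusters, so these values mostly record that split. S1pr4 was most like Map4k2 (r = 0.999), Rasa3 (0.999) and Tnfaip8l2 (0.999), and Spns2 like Rasa3 (0.999), Fli1 (0.999) and Dgka (0.998). Gpr183 was most like Lcp1 (r = 0.996), Foxn3 (0.996) and Lrrc33 (0.995). S1pr2 had the weakest partners, Ipp (r = 0.896), Zkscan3 (0.874) and Fyco1 (0.843).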

How the data were processed

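RNA of 13 splenic B cell libraries was sequenced on an Illumina HiSeq instrument, per the labels' protocols. TopHat, HTSeq, DESeq2 and the mm10 build are listed in the submitters' processing notes; versions and strand setting are not given in the sources used here. The authors deposited, for each library, raw counts per gene symbol and log2 values normalised by them; depth was 21407724 to 33244755 counts. 1 symbol of 23337 with a missing cell was left out. Counts were tested with edgeR 4.0.16 (R 4.3.3; filterByExpr with a minimum count of 10, TMM, robust quasi-likelihood fit over all 4 groups, 9 residual degrees of freedom, Benjamini-Hochberg adjustment), checked on simulated data. The deposited log2 values entered only an alternative with limma 3.58.1, and DESeq2 1.42.0 was a second alternative. Replicate numbers were taken from the titles. Same-numbered libraries of the 2 states deviated together within a genotype (r = 0.49 to 0.83 over 9658 genes), so they were taken as pairs; across genotypes they did not (r = -0.59 to -0.06). No 2 libraries agreed within sampling noise. Levels per kilobase used exons of protein-coding transcripts, GENCODE vM21 (mm10); promoters came from RefSeq.

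The 10 genes and the pathway and marker lists were chosen with earlier results of these data known. Named were the 10 genes and Zc3h12a, up to 2 called genes per list, comparison and direction by smallest p, and the 3 genes most like a receptor (mean log2 CPM of at least 2, other members, predicted models and antigen receptor segments left out). A gene that this rule names and a marker gene are not reported here. Alternatives were other scalings, filters, tests, sample sets, a replicate block and sex as a term.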

Additional observations from a re-analysis of the deposited data

Results flagged for a closer look

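S1pr4 in untreated control library 1, at 209 CPM, lay far from the other 3 libraries at 181 to 183 CPM: its gap to the nearest was 0.938 of the group's range, above Dixon's 95% critical value for 4 samples. It was the only such library among the 10 genes in the 1 group large enough to be checked, and chance flags about 1 in 20 groups. With that library left out S1pr4 still fell after stimulation.

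The response of Gpr183 differed between genotypes in the fit with same-numbered libraries as a block, by -0.516 on the log2 scale (edgeR adjusted p = 0.00317), with all 3 deficient pairs below all 3 control pairs. Without the block the difference was -0.58 and was not called (edgeR adjusted p = 1).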

How the results depend on the processing

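Of 1140 alternative values for single genes, 1111 kept their direction or stayed uncalled on the same side of the threshold, 17 lost and 12 gained a call, and no call changed sign; 39 uncalled values changed sign. The 9 stimulation calls per genotype were kept under every alternative run. The 45 alternatives for the receptor ratios each left out 1 library of a group. Leaving out 1 of 3 or 4 values always moves a mean by less than 1 SD. All 45 stayed within that bound, so they do not show how firm the ratios are.

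Members called between stimulated genotypes numbered 1 with no filter, 1 with only the groups compared, 1 without both libraries of deficient replicate 1 and 4 with sex as a term, and 0 to 2 on leaving out single libraries. In untreated cells they numbered 2 with sex as a term, 1 with DESeq2, and 0 to 1 on leaving out libraries. In the difference of responses 1 was called with the replicate block and 1 without deficient replicate 1. Pathway genes called in untreated cells numbered 1 with only the groups compared, 5 with sex and 3 with DESeq2. In stimulated cells DESeq2 called 12, and leaving out libraries gave 5 to 11. In the difference of responses they numbered 2 with the replicate block, 2 with DESeq2, 1 with upper-quartile factors, 1 with sex, 1 without deficient replicate 1, and 0 to 1 on leaving out libraries.

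All genes called in untreated cells were 70 with upper-quartile factors, 198 with sex, 134 with DESeq2, 74 without deficient replicate 1, and 17 to 74 on leaving out libraries. In stimulated cells they were 511 with sex, 508 with DESeq2 and 129 to 369 on leaving out libraries. In the difference of responses they were 12 with upper-quartile factors, 10 with no filter, 68 with the replicate block, 19 with sex, 35 with DESeq2, 13 without deficient replicate 1, and 1 to 10 on leaving out libraries. The causes of these shifts were not tested. The replicate block by number between genotypes, where numbers pair nothing, left 2 members called after stimulation and 0 before.

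Scaling moved the split of stimulation calls in control cells from 3873 higher and 4318 lower to 4271 and 3928 with DESeq2 size factors and to 3575 and 4843 with upper-quartile factors, and the median of all genes from -0.13 to -0.06 and -0.20. S1pr2 rested on 39 to 177 reads per library.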
